A study of Homo sapiens with 9 samples.

Results

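Enzymes that build serine, glycine, folate one-carbon units, asparagine, arginine, proline and phosphoenolpyruvate were followed, 10 in all, in HEYA8 ovarian cancer cells exposed to sunitinib or to compound 32. They are PHGDH, PSAT1, PSPH, SHMT2, MTHFD2, ALDH1L2, ASNS, PYCR1, PCK2 and ASS1. The 10 genes were chosen by name, with their rise under sunitinib already known, and are 10 of the 58735 genes in the count table. The sunitinib values below are therefore a description and carry no test, and so are those of compound 32 against sunitinib.

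Gene positions are those of the count table, on GRCh38. Each group had 3 samples of the same human line, grown in DMEM with serum, whose genotype the labels give as WT. The groups received sunitinib, a drug that blocks several receptor tyrosine kinases, compound 32, or the solvent DMSO, in each case for 24 h. DMSO was matched to sunitinib by volume. Neither the doses nor the relation between the compounds could be taken from the labels. The series asks whether sunitinib lowers DNA repair in a study of its synergy with cisplatin, and what compound 32 regulates, although no sample received cisplatin.

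Cells make serine from the glycolytic intermediate 3-phosphoglycerate. Mitochondria then split serine into glycine and a carbon unit carried on folate, which feeds purine, thymidylate and methionine synthesis. Asparagine, arginine and proline are made by separate enzymes from aspartate and glutamate. Many of these genes are known targets of ATF4, a transcription factor whose translation increases when amino acids are scarce or when unfolded protein accumulates.

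The libraries held 15.5 to 18.0 M counts with sunitinib, 15.7 to 17.0 M with compound 32 and 15.6 to 16.9 M with DMSO. Sunitinib replicate 3 stood apart from its group. Ribosomal protein genes took 6.96% of its reads, against 3.71% to 4.52% in the other 8 libraries, and mitochondrial genes took 5.36%, against 3.42% to 3.92%. The labels call the line high-grade serous ovarian cancer. Of the markers of such epithelium, PAX8, KRT8 and KRT18 were present, at means of 123, 634 and 347 CPM (counts relative to the library total corrected by TMM factors) with sunitinib, 117, 864 and 441 CPM with compound 32, and 132, 695 and 359 CPM with DMSO. KRT7 averaged 224 CPM with sunitinib, 66.1 CPM with compound 32 and 72.2 CPM with DMSO, and WT1 averaged 5.12 CPM with sunitinib, 10.6 CPM with compound 32 and 12.4 CPM with DMSO. EPCAM, SOX17 and MSLN reached at most 2.54, 5.26 and 1.02 CPM in a library. MUC16 and CDH1 were at or near 0, and the mesenchymal marker VIM averaged 3780 CPM with sunitinib, 3350 CPM with compound 32 and 3630 CPM with DMSO. The 5 leukocyte markers summed to 11.3 to 13.3 CPM with sunitinib, 9.26 to 10.5 CPM with compound 32 and 10.1 to 13.2 CPM with DMSO, nearly all from CD79A, with PTPRC at or near 0. The 4 endothelial markers summed to 13.8 to 17.4 CPM with sunitinib, 6.39 to 7.07 CPM with compound 32 and 7.91 to 10.6 CPM with DMSO, mostly from CDH5, and their part in the results was not tested.

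All 10 enzymes were higher with sunitinib than with DMSO, and in each the lowest sunitinib library lay above the highest DMSO library. How many of all genes had such separate ranges was not counted, so nothing is read from it. The log2 fold changes ran from 0.64 for MTHFD2 to 2.56 for ASS1, with a median of 1.31, which is 2.49-fold. The median over all 15232 genes tested was 0.02. Of the 10, 10 were called higher at a Benjamini-Hochberg adjusted p under 0.05 in edgeR's quasi-likelihood test, where 20.3% of all genes were called higher and 19.9% lower. Nothing is read from that count, since the enzymes were chosen on this contrast. With compound 32, 0 of the 10 were called higher and 3 lower than with DMSO (SHMT2, PYCR1 and PCK2), where 12.0% of all genes were called higher and 10.3% lower. The median of the 10 was then -0.21, against 0.00 over all genes. In bulk RNA, a change in the number of cells of a kind and a change in RNA per cell cannot be told apart.

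**Figure D1:**
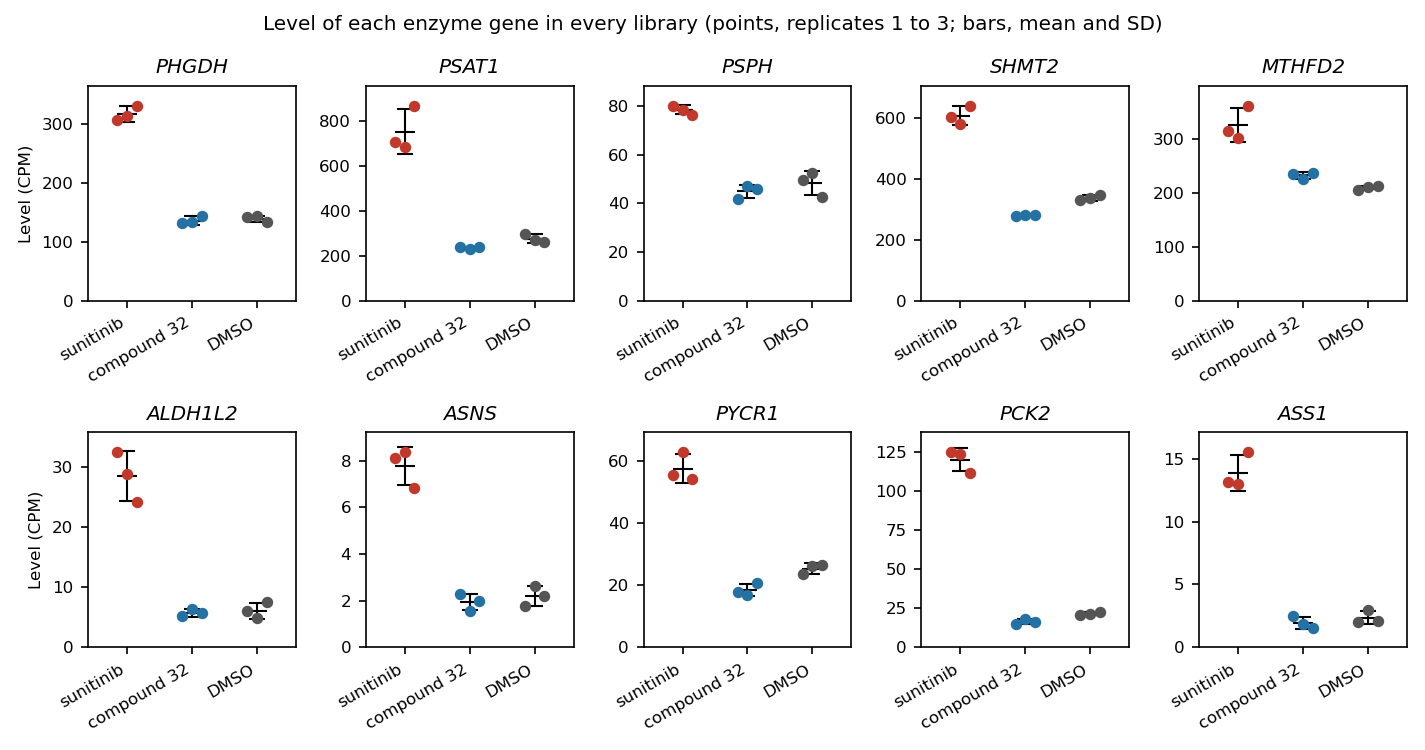
Level of each of the 10 enzymes in CPM on a linear axis that starts at 0, with 1 point per library, sunitinib at the left of each panel, compound 32 in the middle and DMSO at the right; black bars are the mean and SD of 3 libraries. In every panel the 3 sunitinib points lie above the 3 DMSO points, and for 5 enzymes the compound 32 and DMSO points overlap. The share of all genes that overlap was not counted.

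PHGDH, PSAT1 and PSPH carry out the consecutive steps from 3-phosphoglycerate to serine. PHGDH (ENSG00000092621, chr1:119648411-119744226, plus strand), the dehydrogenase that opens the pathway, had 306.0, 313.4 and 331.3 CPM in the sunitinib libraries, 131.0, 133.0 and 144.0 CPM with compound 32, and 141.5, 142.9 and 133.5 CPM with DMSO. The sunitinib libraries were all above 300.0 CPM and the other 6 overlapped, at 144.0 CPM or less. Its log2 fold change with sunitinib was 1.19 ± 0.07 (SE, n = 3 per group, as for every fold change below), or 2.27-fold. With compound 32 it was -0.04 ± 0.07, with edgeR's adjusted p = 0.759 and a 95% interval from -0.18 to 0.11.

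PSAT1 (ENSG00000135069, chr9:78297143-78330093, plus strand), the aminotransferase of the pathway's middle step, reached 704.5, 682.0 and 867.2 CPM with sunitinib, against 239.2, 230.2 and 236.3 CPM with compound 32 and 296.0, 271.4 and 260.2 CPM with DMSO. Sunitinib replicate 3 was the highest library, at 1.25 times the mean of the other 2 of its group. With all sunitinib libraries the log2 fold change was 1.45 ± 0.09, and 1.33 without replicate 3. All compound 32 libraries lay below all DMSO libraries, with a log2 fold change of -0.23 ± 0.09 that missed the threshold (edgeR, adjusted p = 0.1). Without sunitinib replicate 3, which enters the shared estimate of the spread, PSAT1 was called lower with compound 32, at a log2 fold change of -0.23 and an adjusted p of 1.9e-06 in edgeR. In that fit 21.6% of the genes tested were called higher and 20.5% lower, so calls were more frequent over all genes as well.

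PSPH (ENSG00000146733, chr7:56011051-56051604, minus strand), the phosphatase that releases serine, changed least of the 3. It had 80.2, 78.4 and 76.5 CPM with sunitinib, 41.9, 47.2 and 45.7 CPM with compound 32, and 49.7, 52.3 and 42.7 CPM with DMSO. The sunitinib libraries were again apart and the other 6 overlapped. The log2 fold change was 0.70 ± 0.08 with sunitinib and -0.10 ± 0.08 with compound 32 (edgeR, adjusted p = 0.441; 95% interval -0.29 to 0.08). The counts of its pseudogene PSPHP1 came to 6.42% of those of PSPH, and with them added the sunitinib value was 0.70. Together PHGDH, PSAT1 and PSPH held 1146 ± 112 CPM with sunitinib, 416 ± 8.57 CPM with compound 32 and 463 ± 25.6 CPM with DMSO (SD, n = 3 each).

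SHMT2, MTHFD2 and ALDH1L2 are the mitochondrial folate enzymes of the set. SHMT2 (ENSG00000182199, chr12:57229327-57234935, plus strand), which splits serine into glycine and methylene-tetrahydrofolate, had 602.1, 580.5 and 641.3 CPM with sunitinib, 278.8, 281.8 and 281.7 CPM with compound 32, and 329.6, 337.0 and 348.1 CPM with DMSO. None of the 3 groups overlapped another. Sunitinib gave a log2 fold change of 0.85 ± 0.06. With compound 32 SHMT2 fell by 0.27 ± 0.06 on the log2 scale (edgeR, adjusted p = 0.0107), a call that was lost without DMSO replicate 3 (log2 fold change -0.25, adjusted p = 0.0552).

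MTHFD2 (ENSG00000065911, chr2:74198562-74217565, plus strand) oxidises methylene-tetrahydrofolate in mitochondria and is among the enzymes most often raised in tumours. It had 315.4, 302.2 and 362.2 CPM with sunitinib, 235.1, 225.5 and 236.8 CPM with compound 32, and 206.1, 210.4 and 212.6 CPM with DMSO. Its sunitinib value, 0.64 ± 0.07 on the log2 scale, was the smallest of the 10, and was 0.56 without sunitinib replicate 3. It was also the one enzyme with all compound 32 libraries above all DMSO libraries. That log2 fold change, 0.15 ± 0.07, missed the threshold (edgeR, adjusted p = 0.178; 95% interval -0.01 to 0.31) and passed it without sunitinib replicate 3 (0.15, adjusted p = 0.000805).

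ALDH1L2 (ENSG00000136010, chr12:105019784-105084577, minus strand) turns formyl-tetrahydrofolate into carbon dioxide and yields NADPH in mitochondria. It was low, at 32.6, 28.8 and 24.3 CPM with sunitinib, 5.17, 6.45 and 5.62 CPM with compound 32, and 6.03, 4.80 and 7.46 CPM with DMSO. Sunitinib replicate 3 was here the lowest of its group, and still above every other library. The log2 fold change was 2.23 ± 0.16 with sunitinib, or 4.70-fold, and -0.08 ± 0.18 with compound 32 (edgeR, adjusted p = 0.799; 95% interval -0.48 to 0.32). ALDH1L2, with 2019 counts over the 9 libraries, overlaps C12orf45 on the opposite strand, with 4715, and whether reads were counted by strand is not known from the sources. Genes that overlap the other enzymes had at most 247 counts (NDUFA4L2, beside 60242 for SHMT2). Those that overlap ASNS, a gene of few counts, are given below. The folate enzymes SHMT2, MTHFD2 and ALDH1L2 summed to 963 ± 59.2 CPM with sunitinib, 519 ± 5.18 CPM with compound 32 and 554 ± 13.3 CPM with DMSO (SD, n = 3 each), a ratio of 1.74 for sunitinib over DMSO where the serine arm had 2.47.

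ASNS makes asparagine from aspartate and glutamine, and is the textbook gene of the amino acid response. It is shown with a stretch of its promoter because the element through which ATF4 and C/EBP proteins are known to act on it, TGATGNAA, could be read there. ASS1, which joins citrulline and aspartate on the way to arginine, is shown with the stretch that held CACGTG, the E-box bound by MYC and related proteins. Both are 30 bases of the RefSeq promoter table for GRCh38.p14, 5′ to 3′ on the strand of the gene, with the motif in capitals. The ASNS stretch is chr7:97872458-97872487 on the minus strand and lies in exons of other ASNS transcripts but in no coding part. The ASS1 stretch is chr9:130444878-130444907 on the plus strand.
ASNS: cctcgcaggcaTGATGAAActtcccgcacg
ASS1: gcgcgtccccgcCACGTGtccccggtcacc

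The motifs began 68 bases before the annotated start for ASNS and 71 bases before it for ASS1. The windows searched ran from 250 bases before a start to 50 after it, on both strands, for PHGDH, PSAT1, MTHFD2, ASNS, PCK2 and ASS1, in 8 windows because ASNS and ASS1 have 2 each. TGATGNAA stood in 1 of the 8 and in 3.62% of the 35116 windows of all genes, and CACGTG in 1 of the 8 and in 7.26% of all. For SHMT2, PSPH, ALDH1L2 and PYCR1 no window was searched. A match describes letters only.

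ASNS (ENSG00000070669, chr7:97852118-97872542, minus strand) had the lowest level per kilobase of the 10 in every group. It stood at 8.10, 8.37 and 6.83 CPM with sunitinib, 2.26, 1.56 and 1.97 CPM with compound 32, and 1.75, 2.64 and 2.19 CPM with DMSO. Its log2 fold change was 1.82 ± 0.19 with sunitinib, or 3.53-fold, and -0.19 ± 0.22 with compound 32 (edgeR, adjusted p = 0.605; 95% interval -0.67 to 0.30). The sunitinib libraries were apart from the others, and the 9 libraries together held 591 counts for this gene. Of the genes that overlap ASNS, AC005326.1 on the opposite strand had 52 counts and AC079781.5 on the same strand had 19. Their part in the level of ASNS was not tested.

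ASS1 (ENSG00000130707, chr9:130444929-130501274, plus strand) had one of the highest folds with sunitinib, not separate from that of PCK2 within their errors. It had 13.1, 13.0 and 15.5 CPM with sunitinib, 2.46, 1.82 and 1.55 CPM with compound 32, and 2.01, 2.94 and 2.06 CPM with DMSO. Its log2 fold change was 2.56 ± 0.18 with sunitinib, or 5.90-fold. With compound 32 it was -0.28 ± 0.23 (edgeR, adjusted p = 0.437; 95% interval -0.78 to 0.22), an interval wide enough to hold a fall as large as that of PYCR1. Its 11 annotated pseudogenes had 5.88% of its counts, and adding them gave 2.29 with sunitinib.

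PYCR1 (ENSG00000183010, chr17:81932384-81942412, minus strand) makes proline in mitochondria, the last step from glutamate. It had 55.4, 62.9 and 54.1 CPM with sunitinib, 17.8, 17.0 and 20.6 CPM with compound 32, and 23.4, 26.1 and 26.5 CPM with DMSO. The 3 groups did not overlap. Its log2 fold change was 1.18 ± 0.10 with sunitinib, and with compound 32 PYCR1 fell by 0.46 ± 0.10 on the log2 scale (edgeR, adjusted p = 0.00733).

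PCK2 (ENSG00000100889, chr14:24094053-24110598, plus strand), the mitochondrial enzyme that makes phosphoenolpyruvate from oxaloacetate, had 125.1, 123.9 and 111.9 CPM with sunitinib, 14.9, 18.0 and 16.0 CPM with compound 32, and 20.5, 21.5 and 22.5 CPM with DMSO. The sunitinib libraries lay far above the other 6, and compound 32 and DMSO did not overlap. The log2 fold change was 2.48 ± 0.09 with sunitinib, or 5.60-fold, and with compound 32 PCK2 fell by 0.40 ± 0.09 (edgeR, adjusted p = 0.00838). The calls for PYCR1 and PCK2 held without each library in turn.

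Set side by side, the 2 compounds had separate ranges for every enzyme, at doses that are not known to match. The share of all genes with separate ranges between the compounds was not counted. Compound 32 against sunitinib gave log2 fold changes from -2.88 for PCK2 (95% interval -3.08 to -2.69) to -0.49 for MTHFD2 (-0.65 to -0.33), with a median of -1.66. Of the 10, 10 were called lower and 0 higher, where 25.2% of all genes were called lower and 24.1% higher. The choice of the enzymes used the sunitinib libraries, so nothing is read from that count either.

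**Figure D2:**
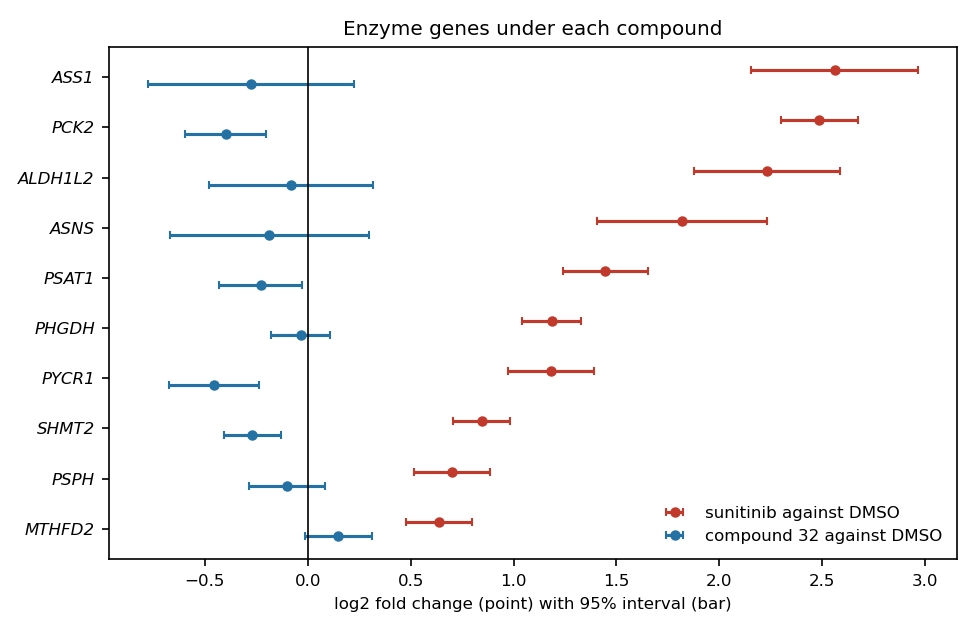
Log2 fold change of each enzyme with sunitinib against DMSO and with compound 32 against DMSO, with 95% intervals from edgeR's fit over all 9 libraries; the vertical line at 0 marks no change. The sunitinib values lie between 0.64 and 2.56 and the compound 32 values between -0.46 and 0.15.

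Per kilobase of the gene length in the table, PSAT1 was highest in every group, at 343 RPKM (CPM per kilobase) with sunitinib, 108 with compound 32 and 126 with DMSO. SHMT2 followed with 126 RPKM with sunitinib, 58.0 with compound 32 and 69.9 with DMSO. MTHFD2 had 67.1 RPKM with sunitinib, 47.7 with compound 32 and 43.1 with DMSO. In DMSO the order then ran PSPH, PHGDH, PYCR1, PCK2, ASS1, ALDH1L2 and ASNS. The place of PSPH above PHGDH rests on their deposited lengths, 2762 and 9217 bases. Their DMSO means were 48.2 and 139.3 CPM. ASS1 at 0.766 RPKM and ALDH1L2 at 0.717 RPKM did not differ beyond their spread there. With sunitinib PHGDH, PCK2 and PSPH lay close, at 34.4, 28.7 and 28.4 RPKM. Of the 10, PCK2 changed its rank among all tested genes the most between sunitinib and DMSO, at the 90.5 percentile of RPKM with sunitinib, against 48.5 with compound 32 and 54.9 with DMSO. ASNS was at the 31.9 percentile with sunitinib, 13.4 with compound 32 and 15.1 with DMSO, in the lower part of the range even where it was raised.

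The 10 enzymes summed to 2309 ± 160 CPM with sunitinib, 974 ± 14.6 CPM with compound 32 and 1069 ± 9.89 CPM with DMSO (SD, n = 3 each). The ratio to DMSO was 2.16 for sunitinib and 0.911 for compound 32. PSAT1, SHMT2 and MTHFD2 made up 73.0% of the counts in that sum with sunitinib and 77.1% with DMSO, and none of the 3 is among the enzymes with the largest folds. Sunitinib replicate 3 was the highest of its group for 5 enzymes and the lowest for the other 5. Without it the log2 fold changes with sunitinib ran from 0.56 for MTHFD2 to 2.53 for PCK2.

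Several of the enzymes have a paralogue that works in another compartment or tissue. SHMT1, the cytosolic counterpart of SHMT2, averaged 29.3 CPM with sunitinib, 47.3 CPM with compound 32 and 37.2 CPM with DMSO. It fell by 0.34 ± 0.08 on the log2 scale with sunitinib (edgeR, adjusted p = 0.00618) and rose by 0.35 ± 0.08 with compound 32 (adjusted p = 0.0103, and 0.0551 without DMSO replicate 3). Per length, the ratio of SHMT2 to SHMT1 was 29.5, 33.0 and 31.4 in the sunitinib libraries, 9.06, 9.06 and 8.67 with compound 32, and 12.5, 13.9 and 14.8 with DMSO. The 3 groups of ratios did not overlap.

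MTHFD2L, a close relative of MTHFD2, averaged 11.1 CPM with sunitinib, 7.48 CPM with compound 32 and 11.4 CPM with DMSO. Its value with sunitinib was -0.03 (edgeR, adjusted p = 0.883). It fell by 0.60 ± 0.16 with compound 32 (adjusted p = 0.0168), a call that was lost without DMSO replicate 2 or 3 or compound 32 replicate 2 or 3 (adjusted p from 0.0544 to 0.0773). ALDH1L1 and PCK1, the cytosolic counterparts of ALDH1L2 and PCK2, never exceeded 2 counts in a library.

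**Figure D3:**
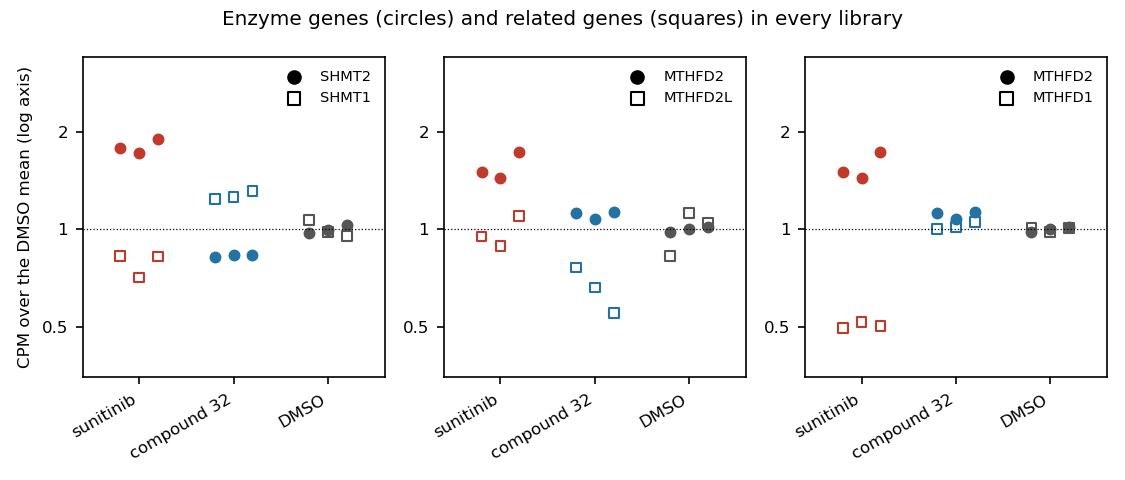
CPM of an enzyme (filled circles) and of a related gene (open squares) in each library, divided by that gene's DMSO mean, on a log axis, for SHMT2 with SHMT1, MTHFD2 with MTHFD2L, and MTHFD2 with MTHFD1; sunitinib is at the left of each panel, then compound 32, then DMSO. With sunitinib the circles of SHMT2 and the squares of SHMT1 move to opposite sides of the dotted line at 1, at log2 fold changes of 0.85 and -0.34.

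The other genes of the same pathways moved in both directions with sunitinib. Of 104 other genes in 6 pathway lists, 79 passed the count filter, and with sunitinib 17 were called higher and 25 lower, with a median log2 fold change of -0.05. The same lists had 15 called higher and 11 lower with compound 32, with a median of 0.00. The shares, 21.5% higher and 31.6% lower with sunitinib, stand beside the 20.3% and 19.9% of all genes. With compound 32 the shares were 19.0% higher and 13.9% lower, beside 12.0% and 10.3% of all genes. These lists were chosen with earlier results of these data known, so nothing is read from the shares. The 25 lower calls spread over all 6 lists.

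In serine and glycine metabolism 11 genes were tested, and 4 were called higher and 3 lower with sunitinib. SDSL, a serine dehydratase-like enzyme, had 18.4 CPM with sunitinib, 5.18 CPM with compound 32 and 5.61 CPM with DMSO. It rose by 1.71 ± 0.13 on the log2 scale with sunitinib (edgeR, adjusted p = 2.18e-06). SFXN1, which carries serine into mitochondria, fell by 0.75 ± 0.06 with sunitinib (adjusted p = 2.38e-06) and rose by 0.46 ± 0.06 with compound 32 (adjusted p = 2.13e-04). SFXN3, of the same carrier family, rose with both, by 0.36 ± 0.06 with sunitinib (adjusted p = 7.56e-04) and 0.48 ± 0.06 with compound 32 (adjusted p = 2.54e-04).

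Of 18 other folate genes 2 were called higher and 7 lower with sunitinib. MTHFD1, the cytosolic enzyme that handles the same folate forms as MTHFD2, averaged 89.8 CPM with sunitinib, 182 CPM with compound 32 and 178 CPM with DMSO, and fell by 0.98 ± 0.06 with sunitinib (edgeR, adjusted p = 3.19e-07). TYMS, which makes thymidylate, fell by 0.97 ± 0.07 (adjusted p = 2.01e-06) and was higher with compound 32 by 0.32 ± 0.07 (adjusted p = 0.00742). MTHFD1L, the mitochondrial formate producer downstream of MTHFD2, had 0.09 with sunitinib (adjusted p = 0.251) and fell by 0.43 ± 0.06 with compound 32 (adjusted p = 6.15e-04). DHFR2, a mitochondrial dihydrofolate reductase, fell by 0.80 ± 0.14 with compound 32 (adjusted p = 0.00208). Whether the mitochondrial and cytosolic folate genes differ as groups was not tested.

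Of 20 genes of asparagine, aspartate and arginine metabolism 5 were called higher and 7 lower with sunitinib. GPT2, the mitochondrial alanine aminotransferase, had 127 CPM with sunitinib, 62.8 CPM with compound 32 and 53.5 CPM with DMSO, and rose by 1.24 ± 0.07 with sunitinib (edgeR, adjusted p = 2.70e-07). GOT2, the mitochondrial aspartate aminotransferase, fell by 0.38 ± 0.06 with sunitinib (adjusted p = 3.27e-04). CPS1, which makes carbamoyl phosphate for the urea cycle, fell by 0.76 ± 0.13 with compound 32 (adjusted p = 0.00158). SLC25A13, the mitochondrial aspartate and glutamate carrier, fell by 0.46 ± 0.08 with sunitinib (adjusted p = 8.72e-04). With compound 32 it fell by 0.32 ± 0.08 (adjusted p = 0.0138), a call lost without DMSO replicate 1 or 2 or compound 32 replicate 2 or 3 (adjusted p from 0.0518 to 0.068).

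Of 10 proline, ornithine and collagen hydroxylation genes 1 was called higher and 2 lower with sunitinib. The higher one was ALDH4A1, which makes glutamate in the last step of proline degradation, at 0.95 ± 0.23 (edgeR, adjusted p = 0.00595). The lower ones were ALDH18A1, which makes the precursor that PYCR1 reduces, at -0.20 ± 0.06 (adjusted p = 0.0174), and ODC1, which makes polyamines from ornithine, at -0.22 ± 0.08 (adjusted p = 0.0365). Both of these calls were lost when counts were scaled by library totals (adjusted p = 0.0817 for ALDH18A1 and 0.0613 for ODC1). That of ALDH18A1 was also lost without DMSO replicate 2 or 3 or sunitinib replicate 1 (adjusted p from 0.0503 to 0.0575), and that of ODC1 without any 1 library other than sunitinib replicate 3 (adjusted p from 0.0517 to 0.115) and with a replicate block (adjusted p = 0.0535). P4HA1 and P4HA2, subunits of the prolyl hydroxylase of collagen, rose by 1.65 ± 0.09 and 1.18 ± 0.07 with compound 32 (edgeR, adjusted p = 4.21e-07 and 5.77e-07), while their values with sunitinib were 0.09 and -0.15 (adjusted p = 0.47 and 0.109). Of 11 genes around phosphoenolpyruvate 3 were called in each direction with sunitinib, among them ENO3 at 0.84 ± 0.11 (adjusted p = 1.54e-04), a muscle-type enolase. ENO2, the neuronal-type enolase, fell by 0.41 ± 0.07 with sunitinib (adjusted p = 6.98e-04) and rose by 2.00 ± 0.07 with compound 32 (adjusted p = 2.14e-08). G6PC3, a glucose-6-phosphatase, rose by 0.39 ± 0.08 with sunitinib (adjusted p = 0.00324). ME3, a mitochondrial malic enzyme, fell by 0.32 ± 0.07 with compound 32 (adjusted p = 0.00502). Of 9 methionine cycle genes 2 were called higher and 3 lower with sunitinib. AMD1, which feeds polyamine synthesis, fell by 0.90 ± 0.07 with sunitinib (adjusted p = 2.02e-06) and by 0.56 ± 0.07 with compound 32 (adjusted p = 1.85e-04). MAT2A, which makes S-adenosylmethionine, fell by 0.36 ± 0.06 with sunitinib (adjusted p = 4.31e-04) and by 0.52 ± 0.06 with compound 32 (adjusted p = 8.38e-05). CTH, which makes cysteine from cystathionine, rose by 0.73 ± 0.15 with sunitinib (adjusted p = 0.00261).

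**Figure D4:**
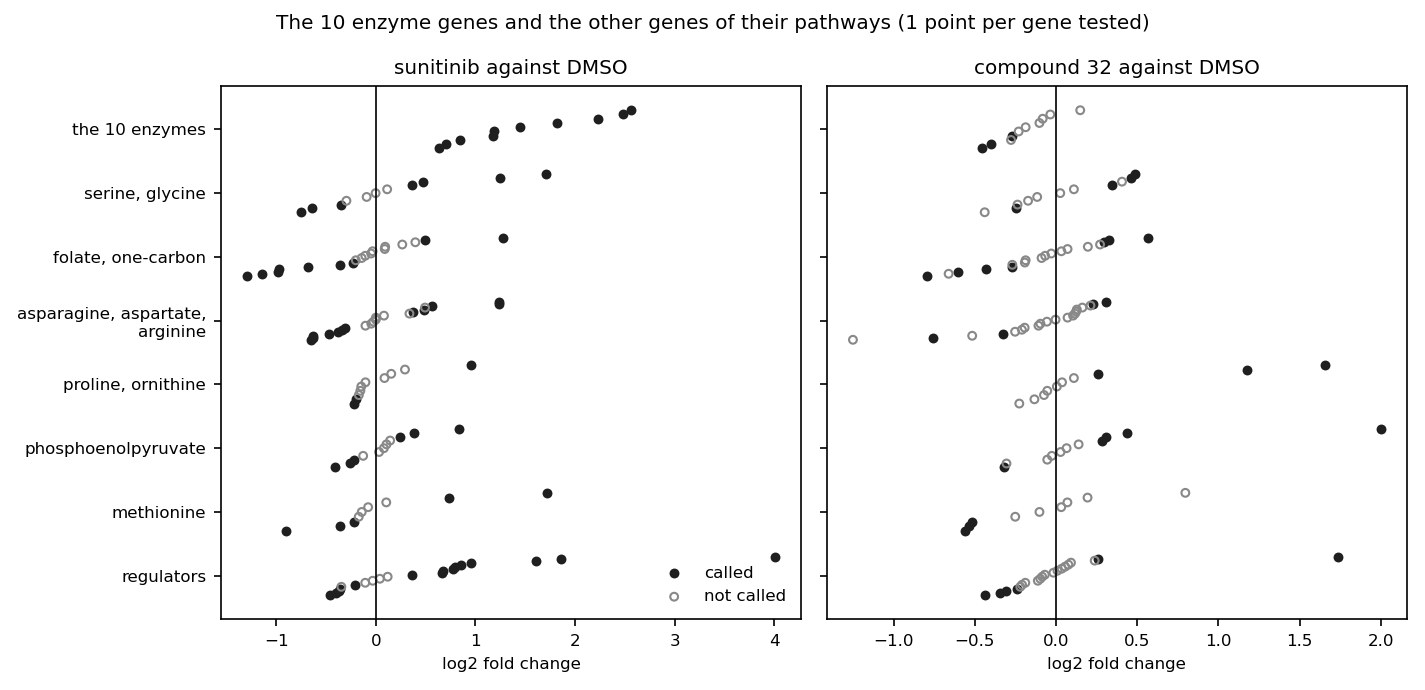
Log2 fold changes with sunitinib (left) and with compound 32 (right), each against DMSO, for the 10 enzymes, the other tested genes of 6 pathway lists and 20 regulators, with 1 point per gene; filled points passed an adjusted p under 0.05 in edgeR and open points did not. The 10 enzymes all lie above 0 with sunitinib, while the other 79 pathway genes lie on both sides of 0 at a median of -0.05.

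A list of 20 regulators was also measured. It mixed genes known to act upstream of these enzymes with known targets or partners of ATF4. With sunitinib 10 were called higher and 5 lower, with a median of 0.24, and with compound 32 2 were called higher and 4 lower, with a median of -0.08. The 5 lower with sunitinib are 25% of the list, beside 19.9% of all genes, and the 10 higher are 50%, beside 20.3%. With compound 32 the list had 10% higher and 20% lower, beside 12.0% and 10.3% of all genes. The list was chosen with earlier results of these data known, so nothing is read from these shares. ATF4 mRNA had 353, 355 and 515 CPM with sunitinib, 293, 290 and 304 CPM with compound 32, and 327, 331 and 291 CPM with DMSO. Sunitinib replicate 3 set the size of its change. The log2 fold change was 0.37 ± 0.13 with all libraries (edgeR, adjusted p = 0.0393) and 0.16 without that library (adjusted p = 0.00127). The call was lost without any 1 of the DMSO or compound 32 libraries (log2 fold change 0.30 to 0.39, adjusted p from 0.0642 to 0.151). ATF4 is controlled largely at translation, which these data do not measure.

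Other stress genes, known as targets or partners of ATF4, were also called. DDIT3, the stress-induced CHOP, had 38.4, 37.1 and 76.7 CPM with sunitinib, 10.4, 12.6 and 12.8 CPM with compound 32, and 14.4, 12.2 and 15.2 CPM with DMSO. It rose by 1.86 ± 0.25 with sunitinib (edgeR, adjusted p = 1.97e-04), and by 1.44 without sunitinib replicate 3. NUPR1, a small stress-induced chromatin protein, rose by 4.01 ± 0.29 (adjusted p = 1.65e-06), with means of 8.89 CPM with sunitinib, 0.583 CPM with compound 32 and 0.542 CPM with DMSO. CEBPG and CEBPB, partners of ATF4, rose by 0.86 ± 0.07 and 0.78 ± 0.08 (adjusted p = 3.63e-06 and 1.33e-05). ATF3, an early stress factor, rose with both, by 0.95 ± 0.13 with sunitinib (adjusted p = 1.85e-04) and 1.73 ± 0.13 with compound 32 (adjusted p = 4.62e-06). ATF5 went the other way with sunitinib and fell by 0.46 ± 0.11 (adjusted p = 0.00528). MYC, another known activator of the serine pathway, had -0.03 with sunitinib (adjusted p = 0.718) and fell by 0.44 ± 0.06 with compound 32 (adjusted p = 5.22e-04).

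Among the other genes with a mean of at least 5 CPM, those whose levels over the 9 libraries were most like the mean standardised log2 CPM of the 10 enzymes were WARS, KRT7, SERPINH1, TRIB3, CCDC92 and GSN, with Pearson correlations from 0.996 to 0.999. They share libraries and treatment groups with the enzymes, so this describes a pattern over 9 points. The enzymes themselves correlated with that mean at 0.929 for MTHFD2 to 0.996 for PHGDH. Each enzyme is part of that mean and was chosen with its rise known, so nothing is read from these values. WARS, the tryptophanyl-tRNA synthetase, had 345, 354 and 388 CPM with sunitinib, 127, 121 and 126 CPM with compound 32, and 139, 142 and 139 CPM with DMSO. TRIB3, a pseudokinase of the ATF4 pathway, averaged 184 CPM with sunitinib, 51.1 CPM with compound 32 and 60.4 CPM with DMSO. KRT7, a keratin, is also one of the epithelial markers given above. SERPINH1, a collagen chaperone, had a log2 fold change with sunitinib of 0.81 ± 0.06, CCDC92 of 2.28 ± 0.13 and GSN, an actin-severing protein, of 0.85 ± 0.07, given without p because the likeness to the enzymes chose them.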

How the data were processed

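RNA from 9 HEYA8 cultures, 3 per treatment, was sequenced after TRIzol extraction and oligo(dT) enrichment, per the labels' protocols. The authors deposited a table of raw read counts, 1 whole number per gene and sample. The submitters' processing notes name fastp, HISAT2 2.0.5, featureCounts, DESeq2, edgeR, and the builds hg38 and mm10; the strand and multimapping settings used for counting are not stated. Coordinates in the table are those of GENCODE release 29 (GRCh38).

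Genes were kept by filterByExpr, which left 15232 of 58735, including all 10 enzymes. Counts were scaled by TMM and tested with edgeR 4.0.16 (R 4.3.3), by quasi-likelihood F tests in 1 group-means model of all 9 libraries, with Benjamini-Hochberg adjustment over all genes tested and a threshold of 0.05. The fits were tested on simulated data. Of simulated 1.5-fold changes, 46.3% were recovered for sunitinib against DMSO and 55.2% for compound 32 against DMSO. For 2-fold changes it was 79.1% in both. A gene that was not called may therefore still have changed by such an amount. Far fewer genes were changed in the simulation than were called in the data, so these shares need not hold for the data. SE is the absolute log2 fold change over the square root of F. RPKM uses the deposited gene length. The 2 contrasts against DMSO share the DMSO libraries. The series text calls only sunitinib and DMSO samples biological replicates, so the variation between compound 32 samples may be technical. The p-values for compound 32 rest on a spread estimated from all 9 libraries together, and measure only how these libraries varied. No pair of libraries was close enough to be counted once (chi-square over its degrees of freedom 1.86 or more, and 45.3 and 46.4 for pairs with sunitinib replicate 3).

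The enzymes, the gene lists and the naming rule were chosen with earlier results of these data known. The rule named the 10 enzymes, their paralogues, from each pathway list the 3 genes with the smallest p for sunitinib and the 2 for compound 32, set regulators, and the 6 genes of at least 5 CPM most like the enzymes. NUPR1 and CEBPG came from the same rule of smallest p. Some genes that the rule named are not reported here. Alternatives covered scaling (RLE, upper quartile, library totals), low-count filters, DESeq2 1.42.0, limma voom (limma 3.58.1), a replicate block, fits of only the 6 libraries compared, a threshold of 0.01, added pseudogene counts, and leaving out each library.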

Additional observations from a re-analysis of the deposited data

How the results depend on the processing

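Over 20 alternatives, the sunitinib value of every enzyme kept its direction and its side of the threshold in 200 of 200 comparisons, and so did compound 32 against sunitinib. For compound 32 against DMSO 193 of 200 kept their side of the threshold, and no called value changed sign, although ALDH1L2, which was not called, ran from -0.24 without DMSO replicate 2 to 0.09 without DMSO replicate 3. The medians moved most with upper-quartile factors, to 1.40 for sunitinib against DMSO and -1.74 for compound 32 against sunitinib. That scaling gave 3952 genes higher and 2316 lower with sunitinib against 3090 and 3036 with TMM. With only the 6 libraries compared, 1 enzyme (MTHFD2) was called higher with compound 32 and PSAT1 was called lower, and over all genes 3258 were higher and 3114 lower. At adjusted p under 0.01, 1857 genes were higher with sunitinib, and 977 were higher and 738 lower with compound 32. Leaving out each library in turn gave 1168 to 3359 genes higher and 968 to 3189 lower with compound 32, against 1830 and 1571 with all libraries, and 0 to 1 enzymes higher, the 1 without sunitinib replicate 3. Without that library 25 pathway genes and 8 regulators were called lower with compound 32, against 11 and 4. Calls rose over all genes as well, with 20.5% called lower in that fit, against 10.3% with all libraries.

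The numbers in the sample titles did not pair the libraries (correlations of deviations from -0.0769 to 0.0609). With the number as a replicate block the medians were 1.31 with sunitinib and -0.21 with compound 32, the same counts of enzymes were called, and 1559 genes were higher and 1319 lower with compound 32. With it the calls for ATF4 (adjusted p = 0.0613) and ODC1 (adjusted p = 0.0535) with sunitinib and for TRIB3 with compound 32 (adjusted p = 0.0567) were lost. The intervals of ASNS and ASS1 with compound 32 span about 1 log2 unit, and the part of depth in this was not tested.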

Other observations

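MTAP, the enzyme that returns methylthioadenosine to the methionine cycle and one of the pathway genes that did not pass the count filter, had 1 count over all 9 libraries, of 146.3 M counts. It was looked at further after its values were seen. Its neighbours on chromosome 9 were as low, with 8 counts for CDKN2A and 2 for CDKN2B over the 9 libraries, in sunitinib, compound 32 and DMSO cultures alike. The 3 genes lie between positions 21802543 and 22009363 in the table's coordinates (GRCh38).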
